A study of Mus musculus with 11 samples.

Results

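The genes described here encode gasdermins and the caspases that act on them or beside them in the mouse colon. They are the 8 rows of the deposited gene count table with the symbols Gsdmc, Gsdmc2, Gsdmc3, Gsdmc4, Gsdmd, Casp1, Casp4 and Casp8, out of 43346 genes in all. Of these 8 genes, 8 passed the low-expression filter, which kept 19863 genes. The rule takes them by name and uses no value, but the list of names was drawn up with earlier results of these data known.

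RNA sequencing covered the colon of 11 male mice of the outbred Swiss Webster stock, 5 germ-free and 6 humanized, all 8 to 10 weeks of age. Germ-free mice carried no microbes. The humanized mice came from the same germ-free line and received 300 µL of a stool suspension from 1 healthy human donor by gavage at 4 to 5 weeks of age, followed by 4 to 5 weeks of colonization. All mice were housed singly in isolators on an autoclaved diet, so the humanized group stands for 1 donor's microbiota in hosts that grew up germ-free. The labels give no litter, cage or sequencing batch, and the p-values set the group difference against the spread between these mice. Any effect of gavage, isolator or batch that went with the group cannot be told apart from colonization.

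Gasdermins are made as inactive proteins in which the C-terminal part holds the N-terminal part in check. A protease that cuts the linker between the parts frees the N-terminal part, which forms pores in the cell membrane through which inflammatory cytokines leave the cell and which can end in lytic death, or pyroptosis. Caspase-1 is switched on by inflammasomes, mouse caspase-4 (also called caspase-11) by bacterial lipopolysaccharide in the cytosol, and both cut gasdermin D. Caspase-8 starts apoptosis below death receptors, holds necroptosis in check and can cut gasdermins as well. In the mouse the single human GSDMC gene has several counterparts in a row, and these are known for their expression in intestinal epithelium and their induction by the type 2 cytokines IL-4 and IL-13.

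In humanized mice 7 of the 8 genes rose at an FDR below 0.01 and 0 fell, beside 9.20% of all tested genes that rose and 10.1% that fell. The changes were largest in the Gsdmc cluster, where Gsdmc4 rose 4.36-fold, Gsdmc 3.67-fold, Gsdmc2 2.58-fold and Gsdmc3 1.78-fold, and 3 of these genes, all but Gsdmc3, passed a log2-fold change (LFC) of 1 as well, against 2.04% of all tested genes. The caspases rose less, Casp4 by 1.75-fold, Casp8 by 1.40-fold and Casp1 by 1.38-fold. Gsdmd was 1.21-fold higher at an FDR of 0.0132 and was not called. These FDRs come from edgeR's exact test. By edgeR's quasi-likelihood test the same 7 genes were called, with FDRs over the 8 genes from 0.000473 (Gsdmc2) to 0.0234 (Gsdmd). The median LFC was 0.82 over the 8 genes and 0.01 over all tested genes. For 7 of the 8 genes, all but Casp1, every humanized mouse lay above every germ-free mouse, which held for 8.67% of all tested genes.

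Between 49097005 and 64148538 reads per germ-free mouse and between 39125290 and 54219854 per humanized mouse were counted on genes. Epithelial markers, which define the labelled tissue, were present in every library with a summed level of 9057 to 12160 CPM (reads of a gene per 1000000 counted reads) in germ-free mice and 10430 to 14390 in humanized mice, and 3 of 11 rose and 0 fell. All 10 smooth muscle markers fell, from a summed 914 to 2579 CPM to 103 to 922 CPM, and 5 of 6 fibroblast markers fell, from 1338 to 1800 CPM to 123 to 988 CPM. Leukocyte markers summed to 165 to 205 CPM in germ-free mice and 85.8 to 377 CPM in humanized mice, with 4 of 12 tested markers higher and 0 lower. No tested marker was at 0 in any library. Humanized mouse 6 had the highest smooth muscle sum of its group (922 CPM, the next 368 CPM) and also stood apart in the Gsdmc cluster, and humanized mouse 5 had the lowest smooth muscle, fibroblast and leukocyte sums.

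The scaling of the libraries bears on the smaller changes. Libraries were normalized with TMM, which put the median LFC of all genes near 0. Scaling to total counts moved the LFC of the median gene by −0.19 and turned the calls over all genes from 1827 higher and 1999 lower to 773 higher and 3609 lower, and scaling to the 11 epithelial markers moved it by −0.27 and gave 518 higher and 3798 lower. Of the 8 genes, 7 rose with total counts, beside 3.89% of all genes that rose and 18.2% that fell, and 4 rose with epithelial scaling, beside 2.61% and 19.1%. Under each of these scalings every humanized mouse lay above every germ-free mouse for 3 of the 8 genes, beside 3.18% of all genes with total counts and 2.01% with epithelial scaling. The calls lost with epithelial scaling were those of Gsdmc3 (LFC 0.55, FDR 0.0279), Casp8 (LFC 0.23, FDR 0.0463) and Casp1 (LFC 0.19, FDR 0.138), all by edgeR's exact test, and the LFC of Gsdmd turned to −0.0067 beside a median of −0.26 over all genes. Gsdmc, Gsdmc2, Gsdmc4 and Casp4 rose under TMM, total counts and epithelial scaling. In tissue with a mixture of cells, fewer cells of a type and less RNA per cell cannot be told apart.

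The coding sequences of the Gsdmc genes are shown first, because they limit what a count of a single gene can say. The genes lie in a cluster on the minus strand of chromosome 15 (mm10). Gsdmc (ENSMUSG00000079025) is at chr15:63775968-63808759, Gsdmc2 (ENSMUSG00000056293) at chr15:63824346-63845177, Gsdmc3 (ENSMUSG00000055827) at chr15:63857724-63878558 and Gsdmc4 (ENSMUSG00000055748) at chr15:63891264-63912297. Over the whole coding sequence of the GENCODE M21 transcripts (GRCm38), Gsdmc2 and Gsdmc3 were 97.1% identical, Gsdmc4 was 93% identical to each, Gsdmc was 82.8% to 83.8% identical to the other three, and Gsdmd was 50.1% to 51.5% identical to the cluster. The first 90 coding bases of each gene follow, with capitals at the bases that differ from Gsdmc2: 11 in Gsdmc, 1 in Gsdmc3 and 2 in Gsdmc4.
Gsdmc: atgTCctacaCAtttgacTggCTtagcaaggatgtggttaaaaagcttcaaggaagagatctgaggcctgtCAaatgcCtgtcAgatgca
Gsdmc2: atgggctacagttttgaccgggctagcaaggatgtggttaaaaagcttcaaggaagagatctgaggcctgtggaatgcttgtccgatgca
Gsdmc3: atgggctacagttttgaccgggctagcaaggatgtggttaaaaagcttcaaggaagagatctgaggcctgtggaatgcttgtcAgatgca
Gsdmc4: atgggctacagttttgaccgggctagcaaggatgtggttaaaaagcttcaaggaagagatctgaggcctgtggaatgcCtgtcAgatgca

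Of all windows of 101 bases, the read length, in the transcript of Gsdmc3, 30.2% were identical to a stretch of another annotated transcript, and 61.2% matched another Gsdmc gene with at most 2 mismatches. The shares were 28.4% and 59.7% for Gsdmc2, 20% and 47% for Gsdmc4, and 7.25% and 14.8% for Gsdmc. Gsdmd and the caspases had 0 windows identical to another transcript, and windows with mismatches were not searched for in these genes. Reads of Gsdmc2, Gsdmc3 and Gsdmc4 can thus be lost or assigned to the wrong gene, and the settings for reads with several matches are not given in the sources used here. The cluster is therefore described gene by gene and also as a sum, which a read assigned to the wrong one of the 4 genes does not change.

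Gsdmc2 was the most abundant gene of the cluster in germ-free mice, at 76.6, 83.5, 81.5, 71.5 and 64.4 CPM. In humanized mice the lowest value was 152 CPM, the median 173 CPM and the highest 334 CPM, in mouse 6. Every humanized mouse was above every germ-free mouse. The LFC was 1.37 ± 0.19 (SE), with an FDR of 1.47e-10 by edgeR's exact test. Without humanized mouse 6, whose value was far above the next, 180 CPM, the LFC was 1.14. Its FDR was then 4.16e-32 by the exact test and 1.32e-05 by the quasi-likelihood test.

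Gsdmc4 had the largest change of the 8 genes. The germ-free mice lay at 39.2, 40.1, 53.0, 50.3 and 37.0 CPM, and the humanized mice ranged from 119 CPM over a median of 142 CPM to 463 CPM. The gap between the groups exceeded the whole germ-free range, and mouse 6 was again the highest, the next humanized mouse being at 150 CPM. The LFC was 2.12 ± 0.35 (SE, FDR 3.89e-08, edgeR's exact test), which is a fold of 4.36 with a 95% interval of 2.72 to 6.98. Without humanized mouse 6 the LFC was 1.63, with an FDR of 1.75e-39 by the exact test and 1.21e-05 by the quasi-likelihood test.

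Gsdmc3 lay at 41.1, 37.1, 49.7, 36.3 and 27.6 CPM in germ-free mice. In humanized mice the lowest value was 53.9 CPM, the median 60.8 CPM and the highest 108 CPM, in mouse 6. The groups did not overlap, but germ-free mouse 3, at 49.7 CPM, was close to the lowest humanized mouse. The LFC was 0.83 ± 0.19 (SE, FDR 0.000229, edgeR's exact test), and 0.65 without humanized mouse 6 (FDR 0.000148, and 0.00714 by the quasi-likelihood test). Its fold of 1.78 (95% interval 1.38 to 2.30) was the smallest in the cluster.

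Gsdmc, the member least like the others in sequence, was scarce. Germ-free mice had 1.30, 2.62, 1.62, 1.87 and 1.92 CPM, from 82 to 137 reads per mouse. Humanized mice had from 3.79 CPM over a median of 5.53 CPM to 14.4 CPM, again in mouse 6. All humanized mice were above all germ-free mice, with an LFC of 1.87 ± 0.33 (SE, FDR 2.58e-06, edgeR's exact test). Without mouse 6 the LFC was 1.51 (FDR 5.47e-08, and 0.000829 by the quasi-likelihood test).

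**Figure D1:**
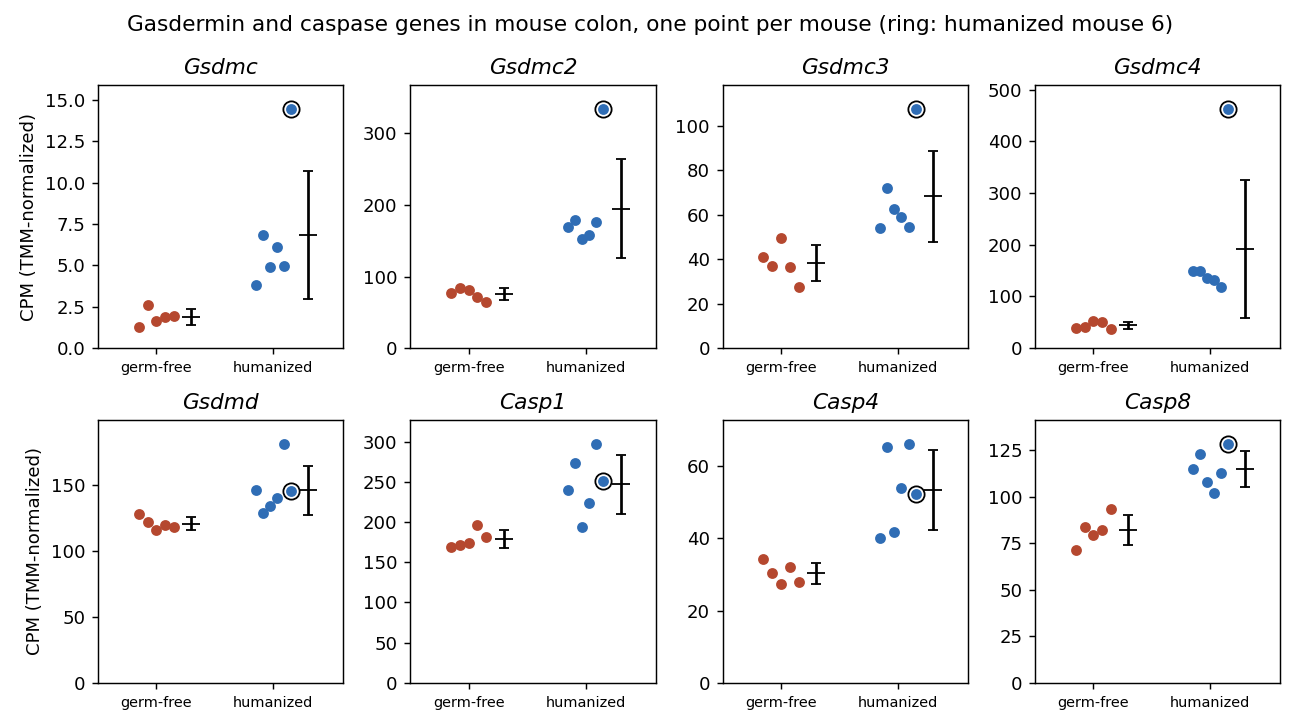
CPM (TMM-normalized, y axis from 0, a scale per gene) of the 8 genes in 5 germ-free and 6 humanized mice, 1 point per mouse, with the mean and SD as a bar beside the points and a ring around humanized mouse 6. In the Gsdmc genes mouse 6 is far above its group (463 CPM for Gsdmc4, the next 150 CPM), and in Casp1 the highest germ-free mouse (197 CPM) passes the lowest humanized mouse (194 CPM).

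Counted once as a sum, the 4 genes gave 158, 163, 186, 160 and 131 CPM in germ-free mice. The humanized mice gave 355 CPM at the lowest, 366 CPM at the median and 919 CPM at the highest, with the second highest at 408 CPM. Apart from mouse 6 the humanized mice thus lay close together, between 355 and 408 CPM. The LFC of the sum was 1.53 ± 0.25 (SE), with an FDR of 4.79e-08 by edgeR's exact test and 0.00121 by the quasi-likelihood test. Without humanized mouse 6 the LFC of the sum was 1.21 (FDR 3.58e-31 and 2.35e-05 by the same tests). With the 3 gasdermin C-like rows of the cluster added, a choice made after the values were seen, the LFC over all mice was 1.54.

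The makeup of the cluster differed between the groups too. The share of Gsdmc4 in the counts of the 4 genes was 27.5% ± 2.89 (SD, n = 5) in germ-free and 39.2% ± 5.79 (SD, n = 6) in humanized mice, a difference of 11.7 percentage points (exact permutation test over 462 assignments of the mice, two-sided p = 0.00433). The share of Gsdmc3 was lower, 23.9% ± 2.40 (SD) against 15.5% ± 2.28 (SD), a difference of −8.3 points with an exact permutation p of 0.00216, the lowest this design can reach. In both shares the groups did not overlap. Gsdmc2 held 47.5% ± 3.09 and 43.8% ± 4.31 (exact permutation p = 0.141), and Gsdmc held 1.19% and 1.46% (exact permutation p = 0.167). These are 4 shares of 1 total, so they are not independent, and the p-values are not adjusted. Without humanized mouse 6, whose Gsdmc4 share was 50.4%, the differences were 9.51 points for Gsdmc4 and −7.53 points for Gsdmc3, each with an exact permutation p of 0.00794. Reads shared between Gsdmc3 and its neighbours enter these shares, and their part in the difference was not tested.

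**Figure D2:**
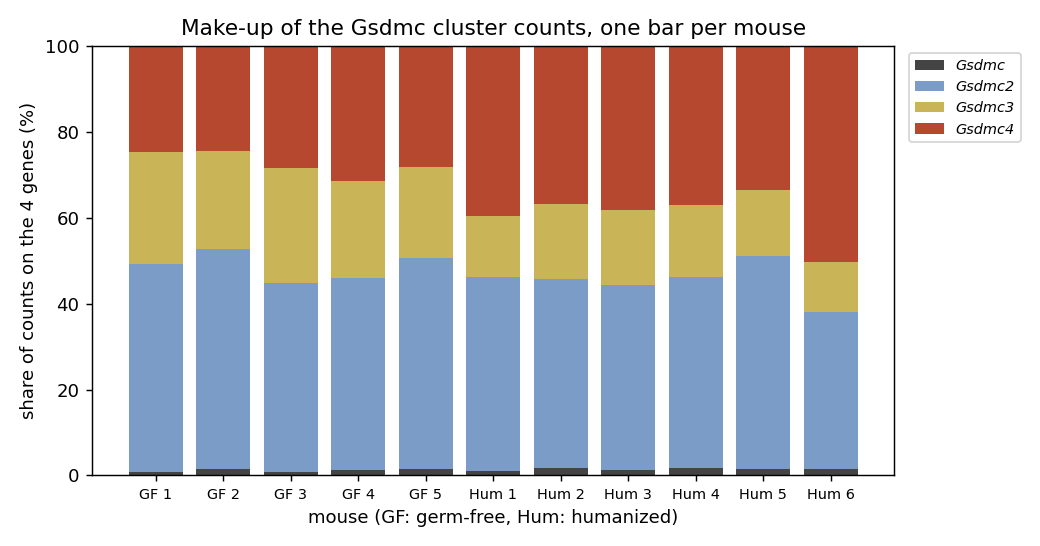
Share of the counts on Gsdmc, Gsdmc2, Gsdmc3 and Gsdmc4 (y axis, percent, stacked to 100) held by each gene, 1 bar per mouse (GF, germ-free; Hum, humanized). The Gsdmc4 block ranges from 24.5% to 31.5% in germ-free mice and from 33.6% to 50.4% in humanized mice, and the Gsdmc3 block from 21.1% to 26.7% and from 11.7% to 17.6%.

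Genes next to the cluster were read from the same table, by position. Within the cluster, the row Gsdmcl2, a gasdermin C-like row by its symbol that lies between Gsdmc3 and Gsdmc4, had an LFC of 1.77 ± 0.34 (SE, FDR 9.72e-06, edgeR's exact test), and the row Gsdmcl-ps an LFC of 0.81 (FDR 0.00452), a call lost without humanized mouse 6 (FDR 0.0167) and under total-count (FDR 0.0427) and epithelial scaling (FDR 0.126). The third such row, Gsdmcl1, was below the filter. The first gene beyond the cluster, Fam49b, had an LFC of 0.17 ± 0.08 (SE, FDR 0.152), and the next, Asap1, an LFC of 0.52 ± 0.12 (SE, FDR 0.00058). On the other side the nearest tested gene, Pvt1, was 1398 kb away, with an LFC of 0.11 (FDR 0.847). The LFC of Fam49b was thus smaller than that of any Gsdmc gene, and the difference was not tested.

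**Figure D3:**
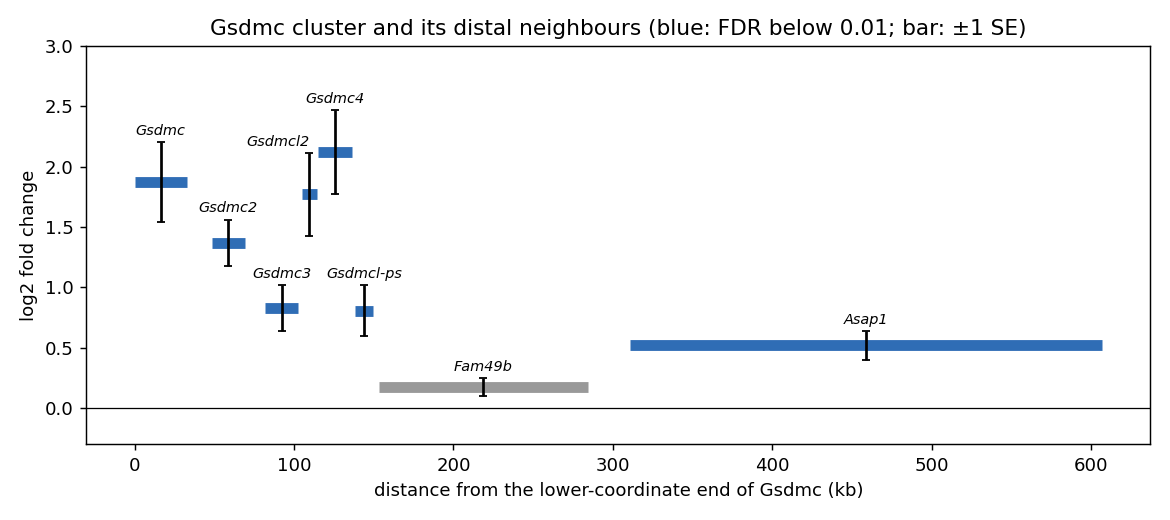
LFC (y axis) of the tested genes of the Gsdmc cluster and its neighbours on one side against the distance from the lower-coordinate end of Gsdmc (x axis, kb), with each gene drawn to its length, vertical bars of 1 SE, and blue for an FDR below 0.01. The Gsdmc genes lie between 0.83 and 2.12, Fam49b at 0.17 and Asap1 at 0.52.

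Gasdermin D is the main target of the inflammatory caspases, and Gsdmd (ENSMUSG00000022575) lies at chr15:75862339-75867404 on the plus strand, on the same chromosome as the cluster. The stretch of its coding sequence that holds the cut site in the linker is shown with the corresponding stretches of the caspases, because cutter and target were measured together. In Gsdmd the capitals mark the 5 codons from codon 273 around the aspartate after which caspase-1 and caspase-4 cut. In the caspases they mark the 5 codons around the catalytic cysteine, from codon 282 in Casp1, 252 in Casp4 and 380 in Casp8 (GENCODE M21, GRCm38).
Gsdmd: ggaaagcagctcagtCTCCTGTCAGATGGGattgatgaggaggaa
Casp1: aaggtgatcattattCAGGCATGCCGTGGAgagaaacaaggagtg
Casp4: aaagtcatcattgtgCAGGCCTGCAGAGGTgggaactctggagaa
Casp8: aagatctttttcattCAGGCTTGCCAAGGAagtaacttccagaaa

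Over their coding sequences Casp1 and Casp4 were 57.3% identical, and Casp8 was 44% identical to Casp1 and 43.6% to Casp4. Gsdmd was at 128, 122, 116, 119 and 118 CPM in germ-free mice and at 129 CPM (lowest), 142 CPM (median) and 181 CPM (highest, mouse 5) in humanized mice. All humanized mice were above all germ-free mice, but the lowest of them exceeded the highest germ-free mouse by little, 128.8 against 128 CPM. The LFC was 0.27 ± 0.08 (SE, FDR 0.0132, edgeR's exact test), with a 95% interval of the fold from 1.08 to 1.35. The FDR passed 0.01 with DESeq2 (0.00982) and without humanized mouse 2 (0.00703) or mouse 3 (0.00815), and over all alternatives it lay between 0.00703 and 0.967.

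The cluster and Gsdmd changed by unequal amounts. The ratio of the summed Gsdmc counts to the Gsdmd count, which does not depend on the scaling of the library, was 0.40 ± 0.20 on the log2 scale in germ-free mice (SD, n = 5, range 0.15 to 0.68) and 1.57 ± 0.58 in humanized mice (SD, n = 6, lowest 0.97, median 1.39, highest 2.67). The groups did not overlap, and the difference was 1.17 (exact permutation test, two-sided p = 0.00433). Without humanized mouse 6 it was 0.95 (exact permutation p = 0.00794, the lowest possible with 5 mice in each group).

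Casp1 (ENSMUSG00000025888, chr9:5298517-5307265), which cuts gasdermin D and matures IL-1β and IL-18, was at 169, 172, 174, 197 and 181 CPM in germ-free mice. In humanized mice it ranged from 194 CPM over a median of 246 CPM to 297 CPM. The groups overlapped by 1 mouse on each side, germ-free mouse 4 and humanized mouse 3. The LFC was 0.47 ± 0.10 (SE, FDR 0.000166, edgeR's exact test).

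Casp4 (ENSMUSG00000033538, chr9:5308828-5336783), the lipopolysaccharide sensor, lies next to Casp1. Its values were 34.2, 30.4, 27.2, 32.0 and 27.9 CPM in germ-free mice and 40.1 CPM (lowest), 53.1 CPM (median) and 66.2 CPM (highest) in humanized mice. The groups did not overlap, and the humanized mice spread more widely than the germ-free mice, with a coefficient of variation of 20.8% against 9.54%. The LFC was 0.81 ± 0.13 (SE, FDR 3.49e-07, edgeR's exact test).

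Casp8 (ENSMUSG00000026029, chr1:58795374-58847503) was at 71.4, 83.6, 79.5, 82.1 and 93.5 CPM in germ-free mice. The humanized mice lay between 102 and 129 CPM with a median of 114 CPM. No mouse of either group reached the other group, and the humanized mice varied by 8.46% of their mean (7.04% without mouse 6). The LFC was 0.49 ± 0.08 (SE, FDR 1.36e-06, edgeR's exact test).

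For the caspases and Gsdmd, 4 ratios within a library were computed, chosen after the values were seen. Casp4 over Gsdmd was higher in humanized mice by 0.52 on the log2 scale, with no overlap between the groups (exact permutation p = 0.00433). Casp4 over Casp1 was higher by 0.34, with overlap (exact permutation p = 0.0173). Casp1 over Gsdmd differed by 0.19 (exact permutation p = 0.0736) and Casp8 over Gsdmd by 0.22 (exact permutation p = 0.11), and in both the groups overlapped. The tests are two-sided and not adjusted.

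**Figure D4:**
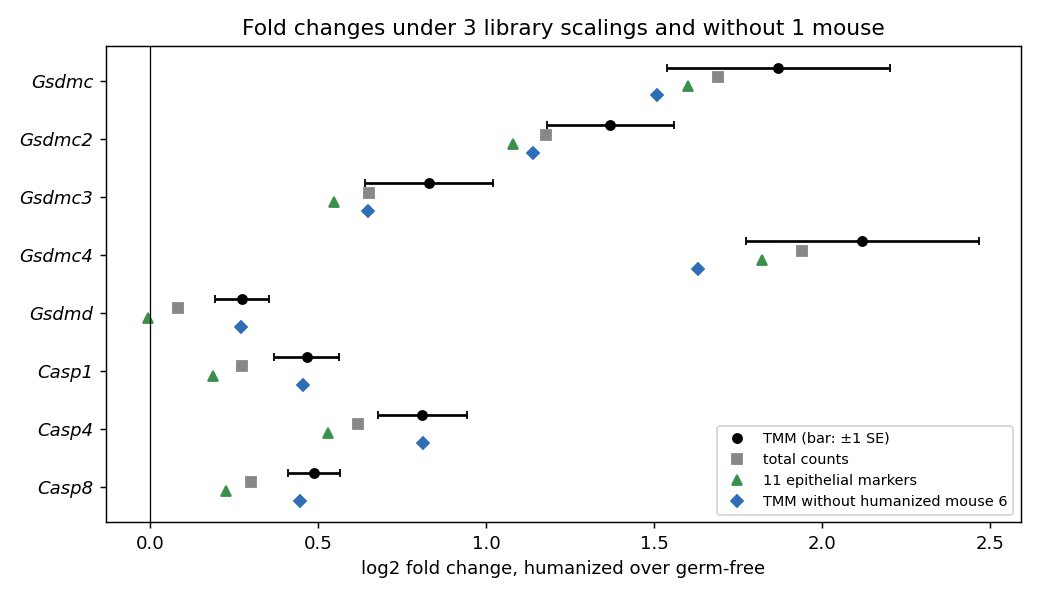
LFC of humanized over germ-free mice (x axis) for the 8 genes under TMM (circles, bars of 1 SE), total counts (squares) and scaling to 11 epithelial markers (triangles), and under TMM without humanized mouse 6 (diamonds). The Gsdmc genes and Casp4 stay above 0.5 throughout, while Gsdmd goes from 0.27 to −0.0067.

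Levels can be compared between genes only per length, as RPKM from the deposited gene lengths. In germ-free mice the order was Casp1 (119 ± 7.44 RPKM, SD), Gsdmd (67.8 ± 2.63), Gsdmc2 (32.6 ± 3.37), Casp8 (28.4 ± 2.75), Gsdmc4 (21.1 ± 3.46), Gsdmc3 (16.5 ± 3.45), Casp4 (8.18 ± 0.78) and Gsdmc (0.776 ± 0.202). In humanized mice it was Casp1 (165 ± 24.3 RPKM, SD), Gsdmc4 (91.7 ± 64.0), Gsdmc2 (84.2 ± 29.8), Gsdmd (82.1 ± 10.4), Casp8 (39.7 ± 3.36), Gsdmc3 (29.3 ± 8.74), Casp4 (14.3 ± 2.98) and Gsdmc (2.84 ± 1.61). The order of the humanized means rests on mouse 6. Without it Gsdmd (82.2 ± 11.6 RPKM) stood above Gsdmc2 (72.2 ± 5.00) and Gsdmc4 (65.7 ± 6.08), and Gsdmd was above Gsdmc4 in 5 of 6 humanized mice and above Gsdmc2 in 4 of 6. In germ-free mice Gsdmc2 was above Casp8 in 4 of 5 mice and Gsdmc4 above Gsdmc3 in 5 of 5. Levels of the Gsdmc genes can be too low by the reads they share, since 28.4% of the windows of Gsdmc2 and 20% of those of Gsdmc4 were identical to another transcript and 0 of those of Gsdmd and Casp8, so their order beside the latter genes is uncertain. The order also depends on the lengths, since the deposited lengths of Casp4 (3710 bases) and Casp8 (2893 bases) exceed those of the GENCODE transcripts shown here (1435 and 1849 bases), and with the shorter lengths both genes would stand higher. Gsdmc4 went from the percentile 85.4 to the percentile 96.9 of the mean RPKM of all tested genes, and Gsdmc from 22.1 to 43.2, while Casp1 stood at 98.2 and 98.4.

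The spread between mice differed among the genes. The coefficient of variation of the CPM in the humanized group was 69.8% for Gsdmc4, 56.6% for Gsdmc, 35.4% for Gsdmc2 and 29.8% for Gsdmc3, against a median of 16.5% over all tested genes. Without mouse 6 these values were 9.26%, 22.0%, 6.92% and 12.2%, beside a median of 16.4% over all genes, and those of Gsdmc4, Gsdmc2 and Gsdmc3 then lay below that median. With all 6 mice the coefficient was 20.8% for Casp4, 14.7% for Casp1, 12.7% for Gsdmd and 8.46% for Casp8. In germ-free mice the values ran from 3.88% for Gsdmd to 26.1% for Gsdmc, with a median of 10.4% over all genes.

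Genes whose values followed each other from mouse to mouse within the groups were looked for over the 11 mice, after each group's mean had been subtracted from the log2 CPM. These values are a description, since all genes of a mouse share a library and its depth, and the genes named are the closest of 19863. For the Gsdmc sum the closest genes were Ccr9 (Pearson r = 0.95, Spearman rho = 0.65), Mttp (0.94 and 0.80) and Mpp6 (0.94 and 0.60), and without humanized mouse 6 the Pearson values were between 0.60 and 0.73. For Gsdmd they were Prkce (r = 0.98, rho = 0.81), Pigx (0.97 and 0.90) and Gm10499 (0.96 and 0.97). For Casp1 they were Tbc1d12 (r = 0.97, rho = 0.90), Snx4 (0.97 and 0.92) and Frg1 (0.97 and 0.93). For Casp8 they were Trim40 (r = 0.96, rho = 0.92), Pgam1 (0.96 and 0.93) and the epithelial keratin gene Krt20 (0.95 and 0.89), and leaving out humanized mouse 6 kept r of these 3 between 0.94 and 0.98.

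Promoters were read from RefSeq (GRCm38.p6, from 250 bases before to 50 after each start), which held an entry for 4 of the 8 genes, namely Casp8, Casp1, Casp4 with a pair of starts, and Gsdmc3. Since these genes rose together, motifs of factors that act downstream of cytokines and microbial products were searched for on both strands. The motifs given here are the STAT6 site TTCNNNNGAA, found in 6.95% of 32851 promoters, the IRF core AANNGAAA in 23.9%, and the NF-kB motif in 6.93%. The promoters of Casp1 and Gsdmc3 held no match to these motifs. Part of each of the other promoters is printed with the matches in capitals, for Casp4 the NF-kB matches at chr9:5308739-5308838 (plus strand) and for Casp8 the IRF core matches at chr1:58802322-58802421 (plus strand).
Casp4: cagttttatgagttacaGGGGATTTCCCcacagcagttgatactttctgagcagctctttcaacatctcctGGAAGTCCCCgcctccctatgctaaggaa
Casp8: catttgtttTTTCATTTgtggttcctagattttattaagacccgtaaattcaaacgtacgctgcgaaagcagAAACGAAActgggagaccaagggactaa

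The Casp4 promoter also held 2 matches to the IRF core outside this stretch, and the NF-kB matches overlap each other in the first run of capitals. A match is a description of the letters, and binding was not measured.

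The other genes of the pathway come from lists of 89 symbols, of which 86 had a row and 75 were tested. Of these, 25 rose and 3 fell at an FDR below 0.01, with a median LFC of 0.19, where 9.20% of all tested genes rose and 10.1% fell. With total counts 14 rose and 11 fell (3.89% and 18.2% of all genes), and with epithelial scaling 10 rose and 10 fell (2.61% and 19.1%). Sensors and the adaptor that activate caspase-1 rose in 7 of 16 tested genes and fell in 0. With total counts 3 rose and 1 fell (Naip6, FDR 0.00818), and with epithelial scaling 2 rose. The adaptor Pycard, which joins sensors to caspase-1, rose from 56.0 to 84.2 CPM (LFC 0.59 ± 0.06, SE, FDR 2.6e-13), and Naip1, which senses a bacterial secretion needle, from 123 to 224 CPM (LFC 0.86, FDR 2.61e-10). Both rose under the other scalings as well. Nlrp6, a sensor of the gut epithelium, had an LFC of 0.51 (FDR 4.7e-06), a call lost with epithelial scaling (FDR 0.0267), Nlrc4, the partner of the Naip proteins, an LFC of 0.38 (FDR 1.44e-05), lost with total counts (FDR 0.0441) and with epithelial scaling (FDR 0.458), and the DNA sensor Aim2 an LFC of 0.32 (FDR 0.00585), lost with both and without humanized mouse 6. Nlrp3 was at 0.348 and 0.521 CPM and was not called (FDR 0.425).

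Of the cytokines released through gasdermin pores and the genes of membrane rupture, 2 of 6 rose and 1 fell (9.20% and 10.1% of all genes). With total counts 2 rose and 1 fell (3.89% and 18.2% of all genes), and with epithelial scaling 1 rose and 1 fell (2.61% and 19.1%). Il18 went from 5.25 to 6.09 CPM in germ-free mice to between 14.0 and 27.9 CPM in humanized mice. No humanized mouse came near the germ-free range, and the LFC was 1.86 ± 0.15 (SE, FDR 1.23e-23, edgeR's exact test). Il1b rose with overlapping groups, from 0.523 to 1.90 CPM on average (LFC 1.86, FDR 0.00242), and the call was lost with epithelial scaling (FDR 0.0148). Il33 fell from 7.94 to 2.36 CPM (LFC −1.75, FDR 1.6e-05), beside the fall of the fibroblast and smooth muscle markers, and their part in it was not tested. Ninj1, which ruptures the membrane after pores have formed, was at 20.8 and 19.8 CPM (FDR 0.688).

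Other gasdermins were scarce or lower. Gsdma rose from 0.548 to 1.98 CPM (LFC 1.84 ± 0.26, SE, FDR 1.73e-09), and Gsdme, listed under its older symbol Dfna5, fell from 50.1 to 35.1 CPM (LFC −0.51 ± 0.13, SE, FDR 0.00129), and these were the 2 of its list that were tested.

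Tested were 9 genes of proteases and inhibitors that act on gasdermins or caspases and of the caspase target Panx1. Of these 9, 5 rose and 0 fell (9.20% and 10.1% of all genes). With total counts 3 rose and 0 fell (3.89% and 18.2% of all genes), and with epithelial scaling 2 rose and 0 fell (2.61% and 19.1%). The granzyme genes, made by cytotoxic lymphocytes, had the largest changes, Gzmb from 0.474 to 4.43 CPM (LFC 3.22 ± 0.42, SE, FDR 3.17e-11) and Gzma from 0.480 to 6.09 CPM (LFC 3.66 ± 0.70, SE, FDR 1.28e-05), beside the leukocyte markers of which 4 of 12 rose. The part of leukocyte number in these values was not tested. Panx1, a membrane channel gene, had an LFC of 0.50 (FDR 4.81e-06) and the caspase inhibitor gene Xiap an LFC of 0.34 (FDR 0.00116), and with epithelial scaling these calls were lost (FDR 0.0423 and 0.643), that of Xiap with total counts too (FDR 0.156).

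Of the genes of death receptor signalling and necroptosis, where caspase-8 acts, 4 of 12 rose and 0 fell (9.20% and 10.1% of all genes). With total counts 3 rose and 4 fell (3.89% and 18.2% of all genes). With epithelial scaling 2 rose and 4 fell (2.61% and 19.1%). The necroptosis kinase gene Ripk3 rose from 12.1 to 22.9 CPM (LFC 0.92 ± 0.11, SE, FDR 4.03e-10), and Zbp1, a nucleic acid sensor above it, from 8.63 to 21.7 CPM (LFC 1.33 ± 0.14, SE, FDR 2.02e-15). Mlkl, whose protein breaches the membrane in necroptosis, had an LFC of 0.50 (FDR 0.000634), lost with total counts (FDR 0.0414) and epithelial scaling (FDR 0.151), and Tradd an LFC of 0.52 (FDR 6.56e-05), lost with epithelial scaling (FDR 0.0216). The partners of caspase-8 in its complex were not called, Fadd with an LFC of 0.15 (FDR 0.302) and Cflar with an LFC of −0.07 (FDR 0.522). Cflar fell with total counts (LFC −0.26, FDR 0.00572) and with epithelial scaling (LFC −0.34, FDR 0.00978). So did the receptor gene Tnfrsf1a (FDR 0.0014 and 0.000228) and the deubiquitinase genes Tnfaip3 (FDR 8.64e-06 and 2.59e-05) and Cyld (FDR 0.00306 and 0.0065). These genes are named after their values were seen. The same scalings moved the LFC of the median gene by −0.19 and −0.27, and a fall beyond that shift was not tested.

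The 14 genes of the interferon response are genes that help caspase-4 to reach bacterial lipopolysaccharide, transcription factors and interferon receptor genes. Of these 14, 2 rose and 0 fell (9.20% and 10.1% of all genes). With total counts and with epithelial scaling 1 rose and 1 fell (Ifngr1, FDR 6.89e-05 and 1.74e-06). Of all genes, 3.89% rose and 18.2% fell with total counts, and 2.61% rose and 19.1% fell with epithelial scaling. Irf1 rose from 113 to 183 CPM (LFC 0.70 ± 0.09, SE, FDR 9.51e-11), and Irf8 had an LFC of 0.25 (FDR 0.00198), which was lost with total counts (FDR 0.599) and turned to −0.02 with epithelial scaling. Irf2, a known activator of Gsdmd, had an LFC of 0.19 (FDR 0.199). The 4 guanylate-binding protein genes tested, Gbp2, Gbp3, Gbp5 and Gbp7, had LFC values between −0.24 and 0.28 and were not called.

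Type 2 signalling is the known inducer of the Gsdmc genes, and 2 of its 10 tested genes rose and 1 fell (9.20% and 10.1% of all genes). With total counts and with epithelial scaling 1 rose and 3 fell, Stat6, Ccl11 and Ccl24. Of all genes, 3.89% rose and 18.2% fell with total counts, and 2.61% rose and 19.1% fell with epithelial scaling. Il13, Il5, Il25 and Il13ra2 were below the filter, and Il4 was at 0.244 and 0.407 CPM (FDR 0.0725). The receptor genes Il4ra, with an LFC of 0.21 (FDR 0.15), and Il13ra1, with an LFC of 0.46 (FDR 9.8e-05, lost with total counts at 0.0118 and with epithelial scaling at 0.167), were well detected, as was Stat6, the transcription factor below them, at 128 and 117 CPM (LFC −0.13, FDR 0.234). Stat6 fell with total counts (LFC −0.31, FDR 0.000456) and with epithelial scaling (LFC −0.39, FDR 0.000568). These scalings moved the LFC of the median gene by −0.19 and −0.27, and a fall beyond that shift was not tested. Retnlb, a goblet cell product that IL-13 induces, rose from a mean of 5.52 CPM to a mean of 46.03 CPM, with a humanized median of 27.5 CPM and 127 CPM in mouse 6, the same mouse in which the Gsdmc genes were highest (LFC 3.06 ± 0.53, SE, FDR 1.7e-07). Without mouse 6 the LFC of Retnlb was 2.43 (FDR 1.79e-10). Ccl11, which attracts eosinophils, fell (LFC −1.22, FDR 0.00229), and Ccl24, of like function, had an LFC of −1.23 (FDR 0.0174) and fell with total counts (FDR 0.00641), with epithelial scaling (FDR 0.00272) and without humanized mouse 6 (FDR 8.16e-06).

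**Figure D5:**
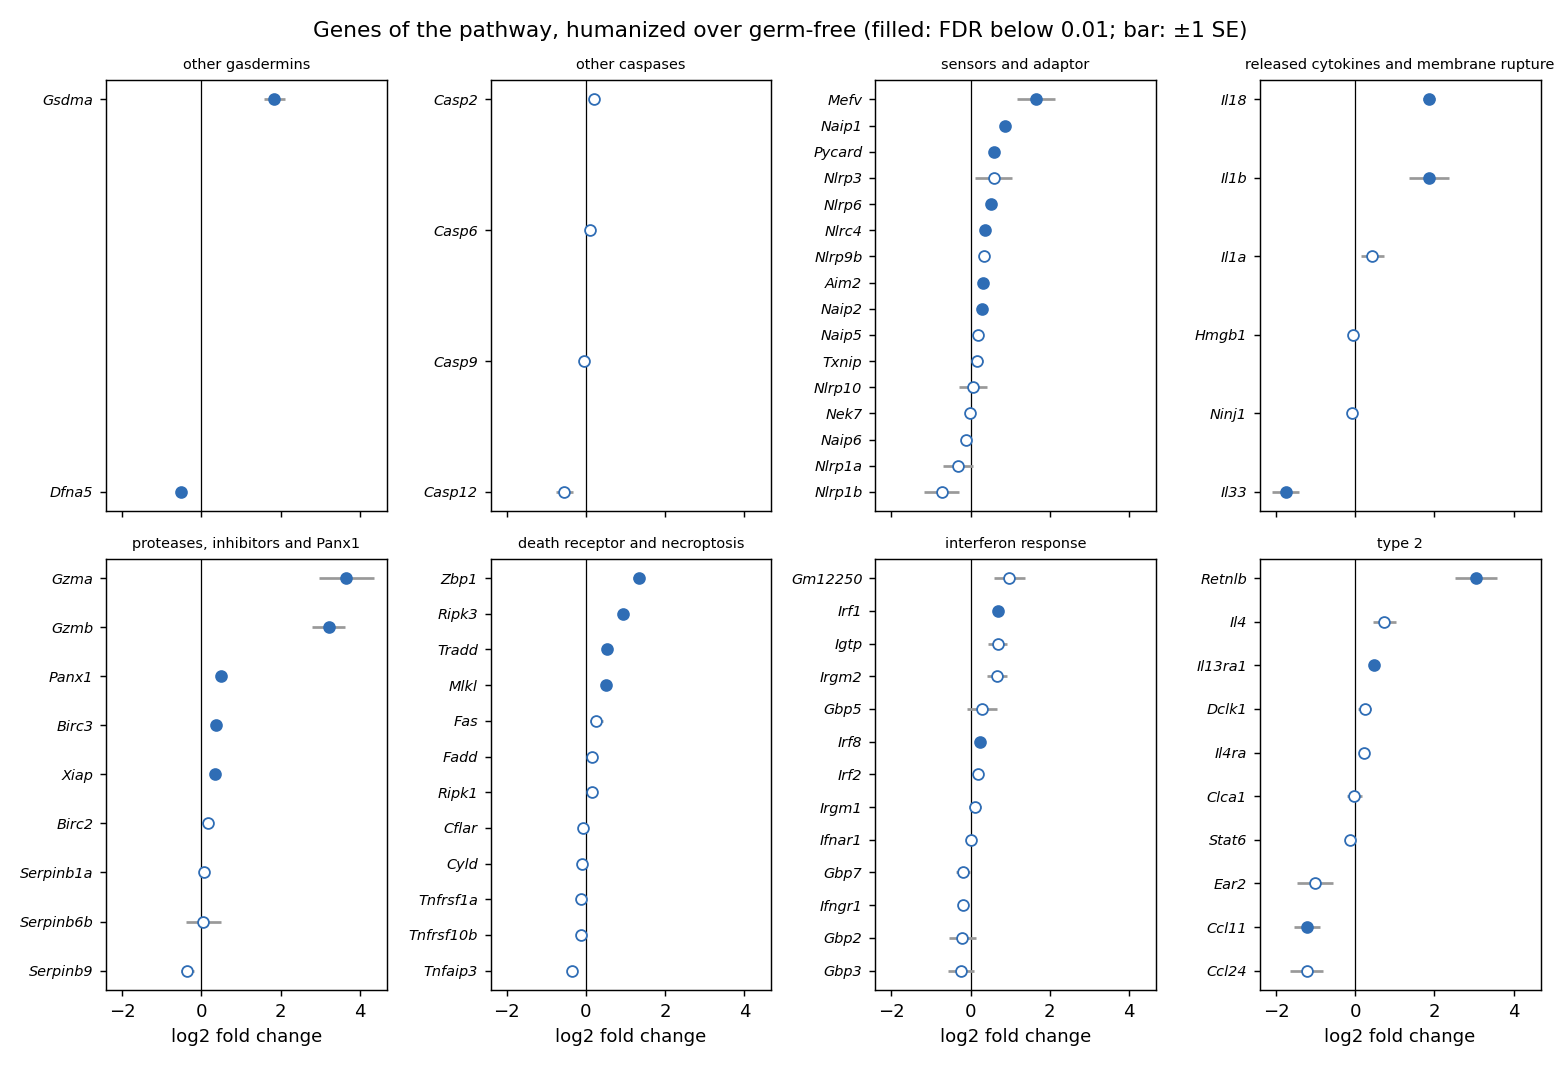
LFC of humanized over germ-free mice (x axis, bars of 1 SE) for 72 of the 75 tested genes of the 8 pathway lists (the rest are not reported here), 1 panel per list and 1 row per gene, with filled points for an FDR below 0.01. Filled points number 26, of which 23 lie right of 0 and 3 left of it (Dfna5, Il33 and Ccl11).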

How the data were processed

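The authors aligned 101 bp paired-end reads of poly(A) RNA to mm10 with TopHat2 2.1.0 and Bowtie2 2.2.3, counted reads per gene with featureCounts (Subread 1.4.6-p5), and deposited the counts, without normalization, in 1 table. The annotation release and the strand and multi-mapping settings are not given in the sources used here. The analysis followed the study's design and used edgeR 4.0.16 in R 4.3.3, with the default low-expression filter of filterByExpr (at least 10 reads in enough libraries and 15 in total), TMM, the exact test and Benjamini–Hochberg correction over 19863 genes, with calls at FDR below 0.01. Standard errors come from edgeR's quasi-likelihood fit, and 95% intervals of folds from these and the normal distribution. CPM and RPKM use TMM-normalized libraries. Shares and ratios were compared by exact permutation of the mice, two-sided. Alternatives were the quasi-likelihood test, DESeq2 1.42.0, other scalings, filters and thresholds, thinned counts, a replicate block and leaving out each mouse.

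The genes and lists were chosen with earlier results of these data known. All 8 genes are described, and from the lists the called genes (at most the 4 with the lowest FDR where over 4 were called) and genes with a known role beside the gasdermins or caspases. Within each group no library was a copy of another, since the mean chi-square of a gene between mice of a group was at least 21.2. Mice of different groups were not compared in this way. Depth bears on precision for the scarce genes, such as Gsdmc at 82 reads in the lowest library. A few items are not reported here.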

Additional observations from a re-analysis of the deposited data

Results flagged for a closer look

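In 28 sets of values (each gene, the Gsdmc sum, shares and ratio in each group), 7 held a mouse whose gap to the nearest of the others exceeded Dixon's 95% critical value, where chance flags about 1 set in 20. The sets are not independent. For 6 of them the mouse was humanized mouse 6. Its Gsdmc4 level was 463 CPM (next 150), its Gsdmc2 level 334 CPM (next 180), its Gsdmc3 level 108 CPM (next 72.0), its Gsdmc level 14.4 CPM (next 6.81), the sum of the cluster 919 CPM (next 408) and its Gsdmc4 share 50.4% (next 39.6%). The same mouse had the highest summed smooth muscle markers of its group, 922 CPM. It also had the highest summed epithelial markers of all mice, 14390 CPM, close to the next humanized mouse at 14280 CPM. The part of tissue makeup in its Gsdmc values was not tested. Its Casp1, Casp4 and Gsdmd values, 251, 52.2 and 145 CPM, lay inside the range of the other humanized mice, and its Casp8 value, 129 CPM, was the highest of all mice (next 123 CPM).

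The seventh was Gsdmd in humanized mouse 5, at 181 CPM (next 146). Mouse 5 had the lowest smooth muscle (103 CPM), fibroblast (123 CPM) and leukocyte (85.8 CPM) marker sums of all mice and also the highest Casp1 (297 CPM) and Casp4 (66.2 CPM) levels. Without it the LFC of Gsdmd was 0.20 (FDR 0.0151, edgeR's exact test), of Casp1 0.40 (FDR 0.000214) and of Casp4 0.74 (FDR 6.9e-07).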

How the results depend on the processing

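Over the alternatives, 166 recomputed LFC values of the 8 genes kept direction and side of the threshold, 3 newly passed it, 6 no longer passed it and 1 changed direction. The Gsdmc sum and its ratio to Gsdmd kept both in every fit run, including those that left out a mouse (LFC 1.21 to 1.6, log2 ratio 0.952 to 1.29). Leaving out a mouse gave 7 to 8 of the 8 genes higher, 0 lower, 20 to 27 other pathway genes higher and 2 to 5 lower, and 1336 to 2088 genes of all higher and 1486 to 2323 lower. With epithelial scaling 4 of the 8 genes were higher and the LFC of Gsdmd was −0.0067, and values did not overlap for 3 genes there (2.01% of all genes) and for 3 with total counts (3.18%). An absolute LFC above 1 left 3 of the 8 genes, 8 other pathway genes higher, and 405 higher and 1273 lower of all genes. An FDR below 0.05 gave 2780 genes higher, and 5 pathway genes lower. The quasi-likelihood test gave 1 pathway gene lower and 1298 genes of all lower, and thinned counts 5 pathway genes lower. Pathway genes higher and lower numbered 14 and 11 with total counts and 10 and 10 with epithelial scaling, and genes of all 773 and 3609, and 518 and 3798. Causes beyond fewer calls at a stricter threshold were not tested.

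The mice share only a number: the deviations of same-numbered mice correlated between −0.133 and 0.091. With a replicate block on mice 1 to 5 of each group, 501 genes rose and 501 fell, 12 pathway genes rose and 1 fell, and the calls of Casp1 (FDR 0.026) and Casp4 (FDR 0.0126) were lost. Without the block on the same mice, a fit added after seeing the data, 1032 genes rose and 1046 fell, and the call of Casp1 was lost (FDR 0.0109).

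Of the 8 genes Gsdmc had the fewest reads, 82 in the lowest library, and scarce list genes such as Nlrp3 and Il4 had fewer still.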
